A study of Mus musculus with 4 samples.

Results

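Interferon-stimulated genes outside the oligoadenylate synthetase and guanylate-binding protein families were followed in infarcted mouse hearts with and without endothelial S1pr1. The list was drawn up by gene name, from genes known to be induced by interferon, and named 37 genes. It was chosen with earlier results of these data known. An array probe was matched to 35 of them through its RefSeq accession. Mx1 and Mx2 had no probe matched here. The 35 genes stand among 22925 features tested on the array, and the brightest probe represented a gene that had several.

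RNA came from hearts of male mice taken 5 days after the left anterior descending coronary artery was tied off, which causes a myocardial infarction in every animal. Wild-type mice (WT) were set against endothelial S1pr1 knock-out mice (KO), named VE-Cad-Cre-S1pr1 fl/fl. In the KO mice the VE-cadherin promoter drives a Cre recombinase in endothelial cells. That promoter is also active in the embryonic endothelium from which blood cells arise, and whether this Cre is inducible, the age of the mice and whether a sample is 1 heart are not given in the sources used here. The 4 arrays comprised WT replicates 1 and 3, and KO replicates numbered 3 and 4. These numbers follow the genotype in the sample titles, and no title pairs a KO sample with a WT sample. No unoperated heart was analysed here.

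Interferons are cytokines released after cells sense foreign or misplaced nucleic acid. Type I interferons bind the Ifnar1 and Ifnar2 receptor, whose kinases Jak1 and Tyk2 activate Stat2 among others. Stat2 and Irf9 are part of a complex that binds the interferon-stimulated response element (ISRE) in the promoters of target genes, while interferon gamma acts mainly at gamma-activated sites (GAS). In the infarcted heart the programme is known mainly from infiltrating monocytes and macrophages that take up DNA of dying cells. The array reads RNA of heart tissue of mixed cell types, so fewer cells of a type and less RNA per cell cannot be told apart. The sample titles name the heart but not the part taken.

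The promoters of these genes are shown because the levels of these genes varied together across the arrays. RefSeq windows of the GRCm38.p6 build, from 250 bases before to 50 bases after the annotated start, were found for 28 of the 37 genes. Searched on both strands, the ISRE core GAAANNGAA was in the window of 13 of these 28 genes (46.4%), against 9.76% of 27025 genes with a window. The GAS motif TTCNNNGAA, which reads the same on both strands, was in 8 of the 28 (28.6%), against 9.55% of all. The list was drawn up from genes known to be induced by interferon, so these shares describe the list and are not a result of these arrays. The motifs can overlap each other, and a match is only a match of letters. The 250 bases before the start are printed 5′ to 3′ on the gene's own strand, with each ISRE core, on either strand, in capitals. In each role, the gene of smallest unadjusted p with an ISRE core in the printed stretch was taken, which gave Trim30a, Isg15, Stat2, Bst2 and Ifih1, and none in the ADP-ribosylation group. The windows lie at chr7:104465194-104465443 on the minus strand for Trim30a, chr4:156200819-156201068 on the minus strand for Isg15, chr10:128270248-128270497 on the plus strand for Stat2, chr8:71537473-71537722 on the minus strand for Bst2 and chr2:62646256-62646505 on the minus strand for Ifih1. In Isg15 the ISRE cores begin at positions -78, -72 and -66 from the start and overlap.
Isg15: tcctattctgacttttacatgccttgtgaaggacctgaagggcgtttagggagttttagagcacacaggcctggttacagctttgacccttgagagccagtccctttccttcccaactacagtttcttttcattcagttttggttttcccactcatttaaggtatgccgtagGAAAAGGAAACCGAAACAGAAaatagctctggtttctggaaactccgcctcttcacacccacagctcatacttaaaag
Stat2: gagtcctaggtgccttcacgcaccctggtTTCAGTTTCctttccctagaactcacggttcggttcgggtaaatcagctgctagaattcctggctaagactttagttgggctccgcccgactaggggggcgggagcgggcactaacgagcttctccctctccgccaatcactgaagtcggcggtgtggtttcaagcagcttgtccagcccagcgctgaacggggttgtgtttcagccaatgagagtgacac
Bst2: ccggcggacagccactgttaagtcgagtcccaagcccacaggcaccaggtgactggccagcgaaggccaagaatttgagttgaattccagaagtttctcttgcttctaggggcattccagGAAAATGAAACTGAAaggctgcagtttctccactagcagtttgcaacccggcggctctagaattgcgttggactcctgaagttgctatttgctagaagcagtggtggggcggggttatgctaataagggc
Ifih1: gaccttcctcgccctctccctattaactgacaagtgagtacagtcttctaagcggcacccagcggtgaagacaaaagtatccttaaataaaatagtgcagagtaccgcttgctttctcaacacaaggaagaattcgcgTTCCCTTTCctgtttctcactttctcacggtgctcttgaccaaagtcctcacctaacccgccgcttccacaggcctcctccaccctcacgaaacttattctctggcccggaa
Trim30a: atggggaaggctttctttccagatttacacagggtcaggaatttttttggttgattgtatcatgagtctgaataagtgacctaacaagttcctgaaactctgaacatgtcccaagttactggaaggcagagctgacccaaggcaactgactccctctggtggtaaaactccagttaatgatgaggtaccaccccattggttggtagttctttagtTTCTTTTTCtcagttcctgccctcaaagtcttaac

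A further 2 promoters were added after the values were seen, because their genes stood apart from most of the list. Ifit1, at chr19:34640639-34640888 on the plus strand, holds ISRE cores that begin at positions -109, -103 and -84. Irf1, at chr11:53769764-53770013 on the plus strand, holds a GAS match, in capitals, that begins at position -90, and no ISRE core lies in its window.
Ifit1: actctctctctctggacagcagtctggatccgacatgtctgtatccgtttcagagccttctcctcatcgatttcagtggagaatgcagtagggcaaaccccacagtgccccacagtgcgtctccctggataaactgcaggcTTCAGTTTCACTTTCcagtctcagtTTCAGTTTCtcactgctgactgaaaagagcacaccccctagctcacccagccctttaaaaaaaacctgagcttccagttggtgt
Irf1: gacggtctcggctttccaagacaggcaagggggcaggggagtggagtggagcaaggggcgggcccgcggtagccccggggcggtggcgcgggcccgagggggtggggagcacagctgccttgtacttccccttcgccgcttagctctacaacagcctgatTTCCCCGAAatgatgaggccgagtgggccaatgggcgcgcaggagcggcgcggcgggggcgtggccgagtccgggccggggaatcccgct

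Levels are log2 processed signals relative to the 75th percentile of the same array. A difference is the KO mean minus the WT mean on that log2 scale, with a standard error (SE) from limma. The level of the targeted gene, S1pr1, was 0.43 and 0.95 in WT but -2.69 and -2.30 in KO, a difference of -3.19 (SE 0.38, adjusted p = 0.740 in limma). All 35 genes were well above background on all 4 arrays, and 17234 of the 22925 features had a probe that was. On single arrays, 54.3% to 73.4% of all probes were well above background. WT replicate 1 had the lowest of these shares. The WT arrays lay at positions 4 and 3 and the KO arrays at positions 2 and 1 of 1 slide, so position and genotype cannot be told apart. Within WT, ventricular cardiomyocyte markers averaged 2.29 on replicate 1 and 6.44 on replicate 3. No label ties an array to its own heart. How much of the spread between the 2 samples of a genotype is technical was not tested. Each SE and p-value in limma rests on a gene's own such spread, drawn toward the spread typical of all features. The smallest p that an exact two-sided permutation test could reach is 0.333.

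The mean of each of the 35 genes was lower in KO than in WT, against 45.2% of all features. Their median difference was -1.07, where that of all features was 0.07. Averaged over the genes, the level was 1.54 on WT replicate 1 and 2.27 on WT replicate 3, against 1.23 on KO replicate 3 and 0.38 on KO replicate 4. The list thus ran highest on WT replicate 3 and lowest on KO replicate 4, and the array means of the genotypes did not overlap. At least a 2-fold lower mean in KO was measured for 21 of 35 genes, against 7.5% of features. For 26 of 35 genes both KO arrays lay below both WT arrays, as for 16.1% of features. These genes vary together from array to array, so the counts are not separate results. The genes were also chosen with earlier results of these data known, so the counts describe the list and are not a test.

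No gene of the list passed the test across features. Adjusted p-values in limma ran from 0.740 to 0.947 for the 35 genes, and 0 of 22925 features passed at 0.05 (0%). Before adjustment, 633 features had a p under 0.05 in limma. Of these 310 were lower in KO (1.35% of features), among them 11 of the 35 genes. With all arrays the count ran from 3 when dim probes were also tested (2% of features) to 14 with median scaling (1.77%) or normexp (1.72%). It was 4 with a common floor under dim values (1.28%) and 7 with quantile scaling (1.27%). With an array left out it was 15 without WT replicate 1 (0.824%), 7 without KO replicate 3 (4.27%), 0 without WT replicate 3 (6.1%) and 0 without KO replicate 4 (0.432%). Leaving out WT replicate 3 brought the median difference to -0.66, and leaving out KO replicate 4 to -0.63. The difference became smaller by over 1.5 times for 15 of the 35 genes in the former case and 18 in the latter.

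**Figure D1:**
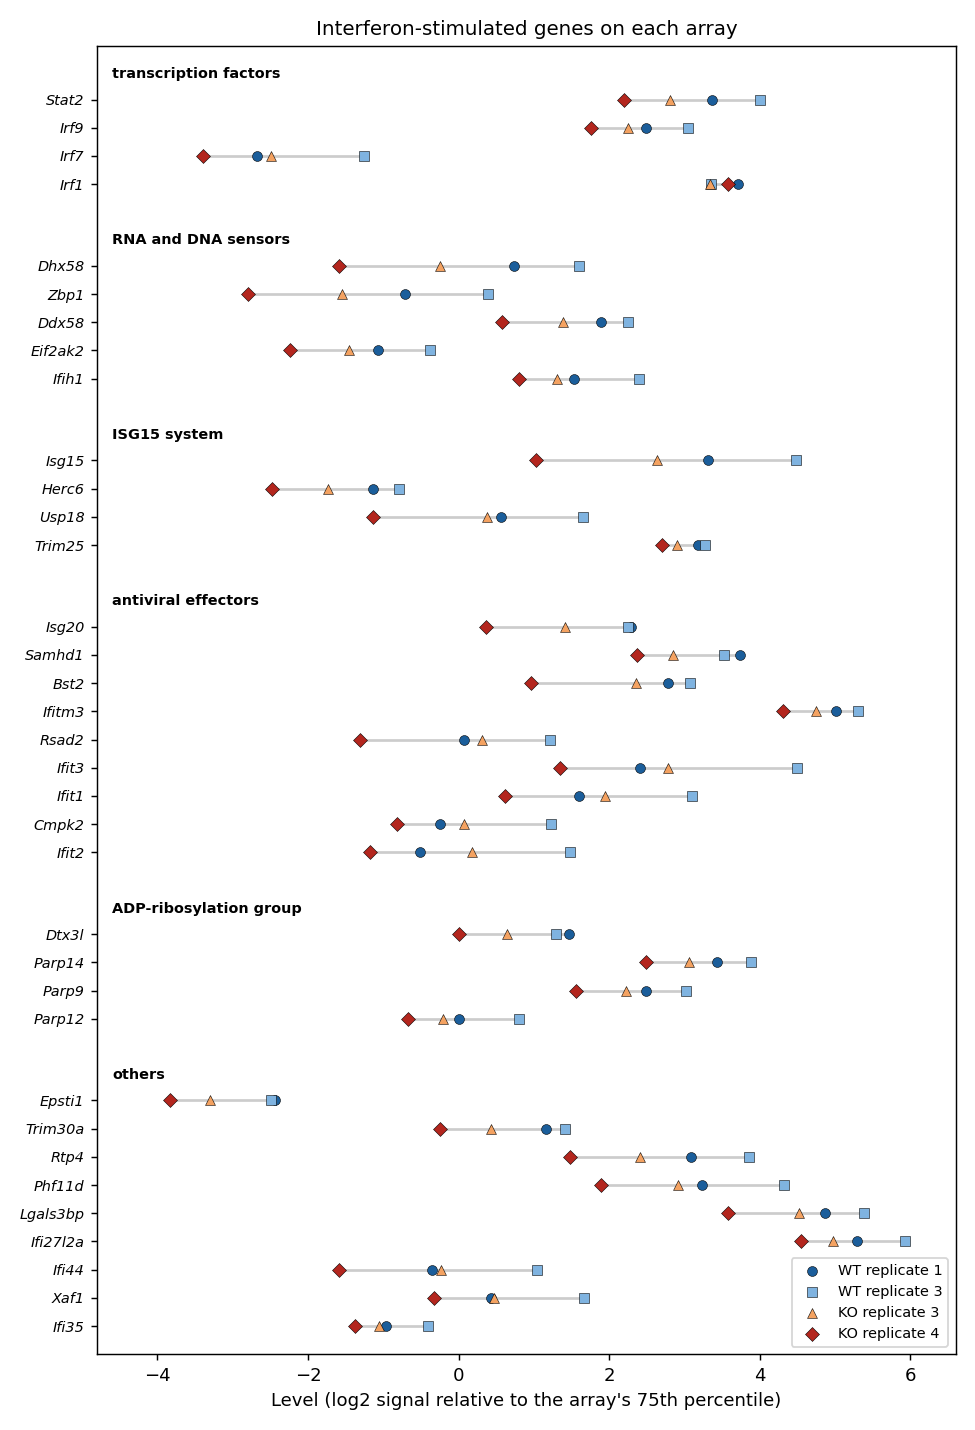
Level of each of 35 interferon-stimulated genes (rows, by role) on the 4 arrays, as log2 signal relative to the 75th percentile of the array. A point is 1 array, and the grey line spans the arrays. For 30 of the 35 genes WT replicate 3 (square) is rightmost and KO replicate 4 (diamond) leftmost, and Irf1 shows a span of only 0.36.

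Among the transcription factors, Stat2, a subunit of the ISRE-binding complex, was 3.36 and 4.01 in WT and 2.80 and 2.19 in KO. The genotypes did not overlap, and the difference was -1.19 (SE 0.43, adjusted p = 0.740 in limma). Irf9, the DNA-binding subunit of the same complex, was 2.48 and 3.04 in WT and 2.26 and 1.76 in KO, also without overlap, with a difference of -0.76 (SE 0.39). Irf7, which amplifies type I interferon production, was -2.68 and -1.25 in WT and -2.49 and -3.40 in KO. Its KO replicate 3 lay above its WT replicate 1, so the genotypes overlapped.

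Irf1, a factor induced by interferon gamma as well as by type I interferon, stood apart from the list. It measured 3.71 and 3.35 in WT against 3.35 and 3.58 in KO, with the genotypes interleaved. The difference of -0.06 (SE 0.34) had a 95% interval of -0.97 to 0.84, so a difference as large as that of Irf9 is within its error. It was 0.12 without WT replicate 1 and 0.05 without KO replicate 3. Irf1 was also 1 of 5 genes of the list that were higher on WT replicate 1 than on WT replicate 3, and the only one higher on KO replicate 4 than on KO replicate 3. A second, dim Irf1 probe, well above background on 2 of 4 arrays, differed by -1.72.

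The sensors of nucleic acid held 2 of the 3 largest differences of the list. Dhx58 (LGP2), a regulator of the RIG-I-like RNA sensors, was 0.74 and 1.60 in WT and -0.24 and -1.58 in KO. Zbp1, a sensor of Z-form nucleic acid that triggers cell death, was -0.71 and 0.39 in WT and -1.54 and -2.80 in KO. Both KO arrays lay below both WT arrays for each of them, and KO replicate 4 was lowest. Dhx58 differed by -2.08 (SE 0.62) and was 4.24-fold lower, and Zbp1 differed by -2.01 (SE 0.64) and was 4.03-fold lower. Their adjusted p in limma was 0.740 each. Without KO replicate 4 the differences were -1.41 for Dhx58 and -1.38 for Zbp1. A second Zbp1 probe differed by -2.12.

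The RNA helicases that detect viral RNA differed less. Ddx58 (RIG-I) was 1.89 and 2.25 in WT against 1.38 and 0.58 in KO. Ifih1 (MDA5) was 1.53 and 2.39 in WT against 1.30 and 0.80 in KO. Their differences were -1.09 (SE 0.43) and -0.91 (SE 0.45), with no overlap of the genotypes. Eif2ak2 (PKR), a kinase that stops translation when it binds double-stranded RNA, was -1.06 and -0.38 in WT and -1.46 and -2.24 in KO, a difference of -1.12 (SE 0.46). In all 5 sensors the arrays ran in 1 order, from WT replicate 3 over WT replicate 1 and KO replicate 3 down to KO replicate 4.

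Isg15 encodes a ubiquitin-like modifier that is joined to proteins after interferon signalling. It was 3.31 and 4.48 in WT and 2.63 and 1.03 in KO, a range of 3.45 over the 4 arrays, the widest of the 35 genes. The difference was -2.07 (SE 0.74, adjusted p = 0.740 in limma), or 4.19-fold lower, and the genotypes did not overlap. Without KO replicate 4 it was -1.26. A second Isg15 probe differed by -1.60.

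The enzymes around Isg15 followed the same order of arrays. Usp18, which removes Isg15 and dampens receptor signalling, was 0.56 and 1.66 in WT and 0.37 and -1.13 in KO, a difference of -1.49 (SE 0.70). Herc6, the mouse ligase for Isg15, was -1.14 and -0.79 in WT and -1.74 and -2.48 in KO, a difference of -1.15 (SE 0.41). Trim25, a ligase that also acts with RIG-I, differed least of the 4, at 3.19 and 3.28 in WT and 2.91 and 2.70 in KO, a difference of -0.43 (SE 0.31). For all 4 genes both KO arrays lay below both WT arrays.

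**Figure D2:**
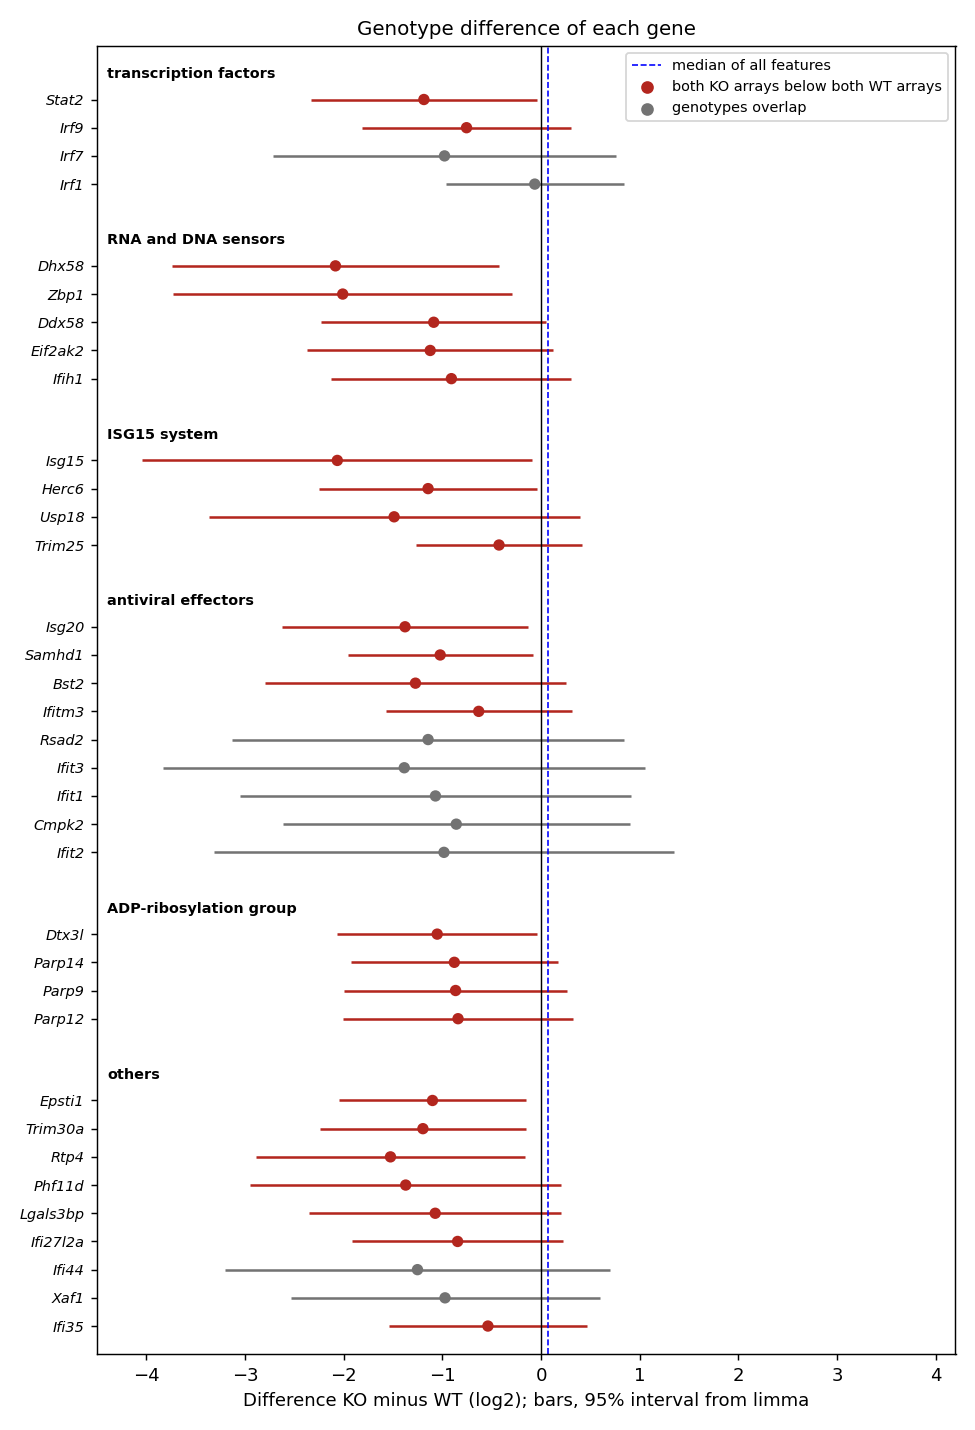
Difference KO minus WT (log2) of each of 35 genes with its 95% interval from limma, by role; red marks the 26 genes whose KO arrays both lay below both WT arrays, grey the others, and the dashed line the median of all features (0.07). All 35 points lie left of 0, most intervals cross 0, and Irf1 lies closest to it.

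The 9 measured antiviral effectors fell into those whose genotypes were separate and those whose genotypes overlapped. Isg20, an exonuclease that degrades RNA, was 2.29 and 2.25 in WT and 1.41 and 0.37 in KO. Samhd1, which depletes nucleotides and so limits viral DNA synthesis, was 3.74 and 3.52 in WT and 2.84 and 2.37 in KO. The WT arrays lay close together in both, above either KO array, and the differences were -1.38 (SE 0.46) and -1.02 (SE 0.35). Bst2 (tetherin), which holds budding virus at the cell surface, was 2.78 and 3.07 in WT and 2.35 and 0.96 in KO, a difference of -1.27 (SE 0.57). Ifitm3, which blocks viral fusion, differed by -0.63 (SE 0.35), also without overlap.

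The other effectors were the RNA-binding Ifit1, Ifit2 and Ifit3 on chromosome 19 and the neighbours Rsad2 and Cmpk2 on chromosome 12, 2 enzymes that act on nucleotides. Their values were set out in full after they were seen. Ifit1 was 1.60 and 3.10 in WT and 1.94 and 0.62 in KO. Ifit2 was -0.51 and 1.48 in WT and 0.17 and -1.17 in KO. Ifit3, which has a close relative that may share its signal, was 2.41 and 4.49 in WT and 2.78 and 1.34 in KO. In these 3 genes WT replicate 1 lay below KO replicate 3, so the genotypes overlapped, and WT replicate 3 alone was above all other arrays. Their differences were -1.07 (SE 0.74), -0.98 (SE 0.87) and -1.39 (SE 0.91). Without WT replicate 3, Ifit1 differed by -0.32, Ifit2 by 0.010 and Ifit3 by -0.34. Rsad2 (viperin) and Cmpk2 showed the same order, with differences of -1.15 (SE 0.74) and -0.86 (SE 0.65), which were -0.57 and -0.12 without WT replicate 3. Without KO replicate 4 these 5 genes differed by -0.67 (Ifit3) to -0.31 (Ifit2).

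The spread within WT therefore differed along the list. From WT replicate 1 to WT replicate 3 the level was higher by 1.99 for the median Ifit gene, with 1.49 to 2.08 over these 3 genes, and by 0.65 for the median gene of the list. It was lower by a small amount for Irf1, Isg20, Samhd1, Dtx3l and Epsti1, at -0.36 to -0.04. Within KO, 34 of 35 genes were higher on replicate 3 than on replicate 4, with a median of 0.80. The order with WT replicate 3 highest and KO replicate 4 lowest held for 30 of 35 genes, against 2.04% of features.

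The genes of the ADP-ribosylation group, Dtx3l and its partner Parp9, which lie side by side on chromosome 16, and Parp14 and Parp12, differed by like amounts. Dtx3l was 1.47 and 1.29 in WT and 0.65 and 0.0042 in KO, a difference of -1.05 (SE 0.38). Parp14 was 3.43 and 3.88 in WT and 3.06 and 2.49 in KO, and Parp9 was 2.49 and 3.02 in WT and 2.23 and 1.55 in KO. The differences of Parp14, Parp9 and Parp12 were -0.88 (SE 0.39), -0.87 (SE 0.42) and -0.84 (SE 0.43). In all 4 genes both KO arrays lay below both WT arrays. Their differences spanned only -1.05 to -0.84, the narrowest range of any role.

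The other 9 genes were all lower in KO, with differences of -1.53 to -0.54, and 7 of them had separate genotypes. Epsti1 was -2.43 and -2.49 in WT and -3.29 and -3.83 in KO, a difference of -1.10 (SE 0.35). Trim30a, a regulator of inflammatory signalling with close relatives that may share its signal, was 1.16 and 1.42 in WT and 0.43 and -0.25 in KO, a difference of -1.20 (SE 0.39). Rtp4, a chaperone-like protein with antiviral activity, was 3.09 and 3.86 in WT and 2.42 and 1.48 in KO, a difference of -1.53 (SE 0.51). Phf11d and Lgals3bp differed by -1.37 and -1.07, and the abundant Ifi27l2a by -0.85. Ifi35 was separate too, at -0.54, while Ifi44 and Xaf1 overlapped between genotypes in the manner of the Ifit genes.

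A second probe was on the array for 12 of the 35 genes, and all 12 were lower in KO. Of all features, read by their brightest probe, 45.2% were. The second probes give a further reading of the same RNA and are not replicates. That of Irf1 was well above background on only 2 of 4 arrays, and that of Xaf1 on 3. Isg20 differed by -1.40 on its second probe, Samhd1 by -1.09, Herc6 by -1.12, Dtx3l by -0.98 and Ifih1 by -0.83, close to the probe used. Ddx58 differed by -0.64, Cmpk2 by -0.57, Lgals3bp by -0.84 and Xaf1 by -0.30 on theirs, less than on the brighter probe.

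WT replicate 3 and KO replicate 3 were the most alike of the 4 pairs of a KO and a WT array, with the narrowest spread over all features. The pair was singled out after its values were seen. Over all features the difference between them had a median of -0.03, with the 5th percentile at -0.72 and the 95th at 0.74. All 35 genes were lower on KO replicate 3, against 54.5% of features, although Irf1 differed by only -0.0011. The median was -0.98. Of the 35 genes, 28 lay below the 5th percentile of all features, and 17 were at least 2-fold lower, against 2.63% of features. With 1 array of each genotype this has no replicate check.

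The markers of cell types were compared on the same pair. Ventricular cardiomyocyte markers averaged 6.44 on WT replicate 3 and 6.23 on KO replicate 3, and macrophage markers 1.64 and 1.72. The macrophage markers went both ways, however, with 3 of 9 lower on KO replicate 3. Fcgr1, a receptor for antibodies, differed by -2.05, Aif1 by -0.88 and Mpeg1 by -0.70, while Cd14 differed by 1.71, Lyz2 by 1.29 and Adgre1 by 0.52. Inflammatory monocyte markers averaged 2.84 and 1.94, and all 5 were lower on KO replicate 3. Endothelial markers averaged 0.96 and 1.35. The part of these cells in the difference between the 2 arrays was not tested.

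In each other pair the cardiomyocyte, macrophage and inflammatory monocyte means differed more, which did not hold for every other list. The endothelial mean was 1.21 on KO replicate 4, nearer to the 0.96 of WT replicate 3 than that of KO replicate 3 was. Against WT replicate 1, KO replicate 3 was lower for 27 of 35 genes, against 50.7% of features, with a median of -0.32, and none was 2-fold lower. KO replicate 4 was lower than WT replicate 1 for all 35, against 44.8% of features, with a median of -1.18. It was lower than WT replicate 3 for 34, against 37.8% of features, with a median of -1.82. In this last pair 25 of the 35 genes lay below the 5th percentile of all features. In the pairs with WT replicate 1, 0 did, and that percentile was -1.36 (KO replicate 3) and -2.52 (KO replicate 4). On WT replicate 1 the cardiomyocyte mean was only 2.29, and it was 7.06 on KO replicate 4. On KO replicate 4 the macrophage mean was 0.54 and the inflammatory monocyte mean 0.22, each the lowest of the arrays.

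**Figure D3:**
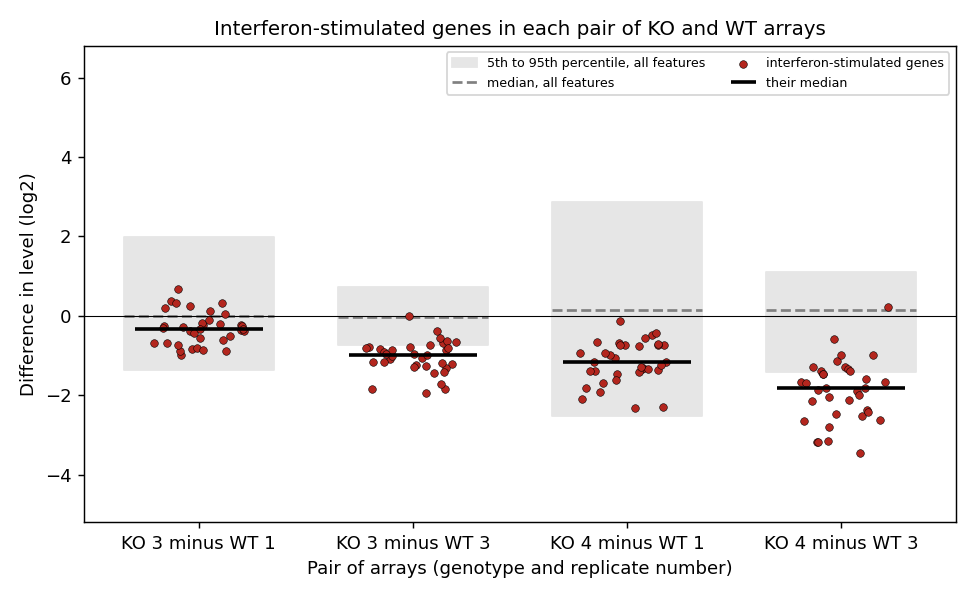
Difference in level (log2) of 35 genes in each pair of a KO and a WT array; a point is 1 gene, the black bar the median of the genes, the grey band the 5th to 95th percentile of all features and the dashed line their median. In KO replicate 3 minus WT replicate 3 the band is narrowest, -0.72 to 0.74, and 28 genes lie below it. In KO replicate 4 minus WT replicate 3, 25 genes lie below the band, and in the pairs with WT replicate 1, 0 do.

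None of the 9 marker lists ran highest on WT replicate 3, where the interferon-stimulated genes did. Macrophage markers (9 of 10 tested) were all lower in KO, but ran highest on WT replicate 1, at 2.64, where the interferon-stimulated genes averaged 1.54. Inflammatory monocyte markers also ran highest on WT replicate 1, at 3.44, and 4 of the 5 tested were lower in KO. All 12 cardiomyocyte markers and all 7 endothelial markers had a higher mean in KO, where 45.2% of all features had a lower one. However, all 12 cardiomyocyte markers were lower on KO replicate 3 than on WT replicate 3, so their genotypes overlapped and only WT replicate 1 was low. Both KO arrays, at 1.35 and 1.21, exceeded both WT arrays, at 0.57 and 0.96, in the endothelial mean. The part of these markers in the difference of the interferon-stimulated genes over all arrays was not tested.

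Markers of other cells that could carry interferon genes gave no common direction. Of the 6 plasmacytoid dendritic cell markers only Bst2, itself an interferon-stimulated gene, was lower in KO. Klk1 was well above background on only 2 of 4 arrays, Ccr9 was dim at -3.80 to -3.08, and Siglech was bright at 5.39 to 5.99. Whether these probes read such cells in heart tissue was not tested. Cox6a2 of that list, which heart muscle also expresses, was 2.21 and 6.90 in WT and 6.56 and 7.54 in KO, in the array order of the cardiomyocyte markers, so no mean is given for the list. T and NK cell markers averaged -2.49 and -2.71 in WT and -2.18 and -2.55 in KO, and fibroblast markers 3.30 and 3.24 in WT and 3.67 and 3.01 in KO. B cell markers (3 tested) averaged -0.64 and -3.41 in WT and -0.42 and -5.21 in KO, and neutrophil markers (5 tested) 1.49 and -0.38 in WT against 0.13 and 0.67 in KO. In these 4 lists the genotypes overlapped. The part of these cells in the result was not tested.

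**Figure D4:**
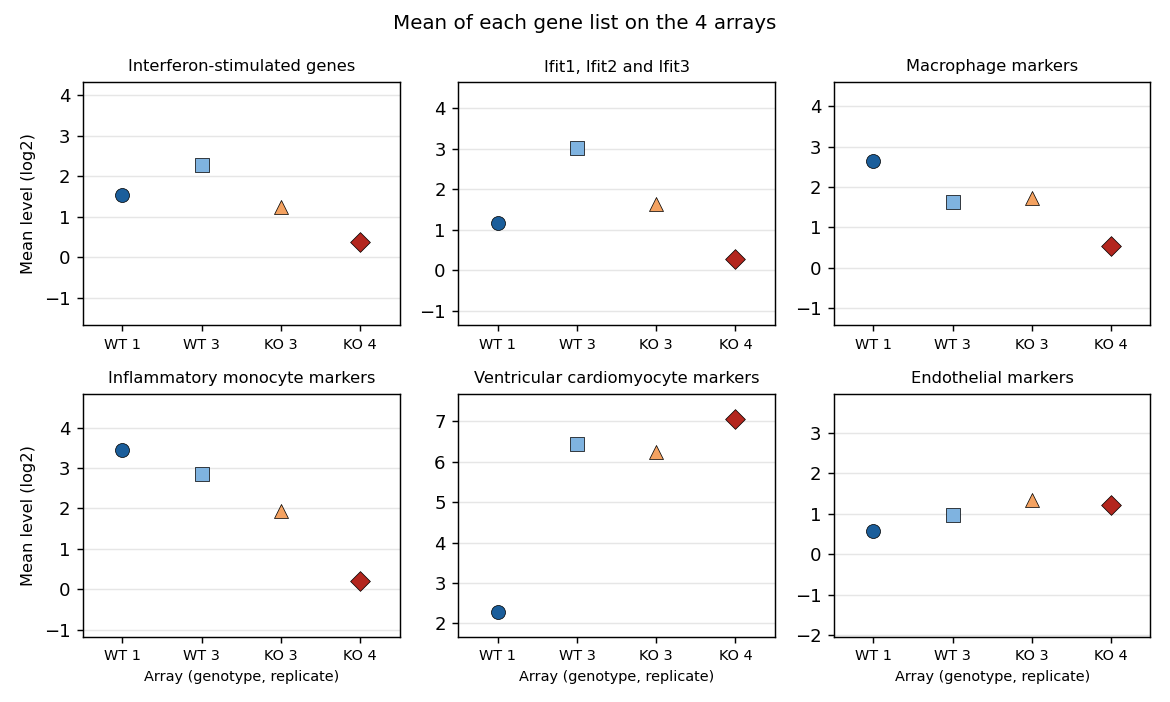
Mean level (log2) of 6 gene lists on each array; a point is the mean over the list's tested genes on 1 array, and each panel spans 6 log2 units around its own centre. The interferon-stimulated genes and the Ifit genes peak on WT replicate 3, macrophage and monocyte markers on WT replicate 1, and cardiomyocyte markers are low only on WT replicate 1.

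The rest of the interferon pathway was lower in KO less evenly. Of 44 listed ligands, receptors, signalling proteins, sensors and inhibitors, 38 were tested, 30 were lower in KO, against 45.2% of all features, 8 were higher, and 0 passed the test (smallest adjusted p = 0.740 in limma). Before adjustment 2 had a p under 0.05 in limma, both lower in KO. The median difference was -0.24. Both KO arrays lay below both WT arrays for 12 of the 38, against 16.1% of features, and above them for 3, against 18.3%.

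Ligands were dim or not well above background. Ifnb1, Ifng, Ifna4, Ifne and Ifnk were not well above background on as many as 2 arrays and were not tested, and Ifnl2 had no probe matched here. Ifna1, Ifna2, Ifna5 and Ifnl3 were tested at levels between -5.48 and -2.84, with differences of -0.45, -0.22, -0.50 and 0.39.

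The receptors gave no shared direction. Ifnar1 was 1.63 and 0.51 in WT and 0.86 and 0.0084 in KO, and Ifnar2 was 2.27 and 1.83 in WT and 1.81 and 1.80 in KO. The interferon gamma receptor chains Ifngr1 and Ifngr2 differed by -0.010 (SE 0.32) and 0.81 (SE 0.41), and Ifngr2 was higher on both KO arrays. Il10rb, the chain shared by interferon lambda and interleukin-10 receptors, differed by 0.51, and Ifnlr1 by 0.77.

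Kinases and transcription factors were lower for 9 of 10, with a median difference of only -0.16. Jak1 differed by -0.42 (SE 0.37), Jak2 by -0.22 and Tyk2 by -0.11. Stat3, Irf2, Irf3, Nfkb1 and Rela lay within -0.16 to 0.11. The myeloid factors Irf5 and Irf8 differed by -0.86 (SE 0.43) and -0.74 (SE 0.51), and both ran highest on WT replicate 1 as the macrophage markers did.

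Sensors and adaptors were lower for 11 of 13. Ifi204, a DNA sensor that is itself interferon-induced and has close relatives that may share its signal, averaged 4.35 ± 0.22 in WT and 3.18 ± 0.023 in KO (SD, n = 2), a difference of -1.17 (SE 0.32). Adar, which edits double-stranded RNA, was 0.97 and 1.25 in WT and 0.27 and -0.51 in KO, a difference of -1.23 (SE 0.41). Trex1, which degrades cytosolic DNA, differed by -0.86 (SE 0.32). All 3 were lower on both KO arrays and, as most of the list, highest on WT replicate 3. The DNA sensor Cgas and its adaptor Sting1 instead ran highest on WT replicate 1, at 0.05 and 2.73, and differed by -1.33 (SE 0.60) and -1.01 (SE 0.73). Myd88 averaged 1.68 in WT and 0.67 in KO, and Ikbke -3.06 and -4.06. Differences were smaller for Tlr7 at -0.54, Tlr3 at -0.23, Ticam1 at -0.15 and Tbk1 at -0.14. Mavs, the adaptor of the RNA helicases, and Tlr9 were higher in KO, by 0.63 and 0.24.

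Of the inhibitors, Socs1, which blocks the receptor kinases, was -0.19 and -0.57 in WT and -0.64 and -2.42 in KO, a difference of -1.15 (SE 0.68). Socs3 differed by -0.93 (SE 0.63), the phosphatases Ptpn6 and Ptpn2 by -1.58 (SE 0.77) and -0.38 (SE 0.33), and Pias1 by 0.15 (SE 0.34). Socs1, Ptpn6 and Ptpn2 had separate genotypes, and KO replicate 4 alone was far below the other arrays for Socs1 and Ptpn6.

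**Figure D5:**
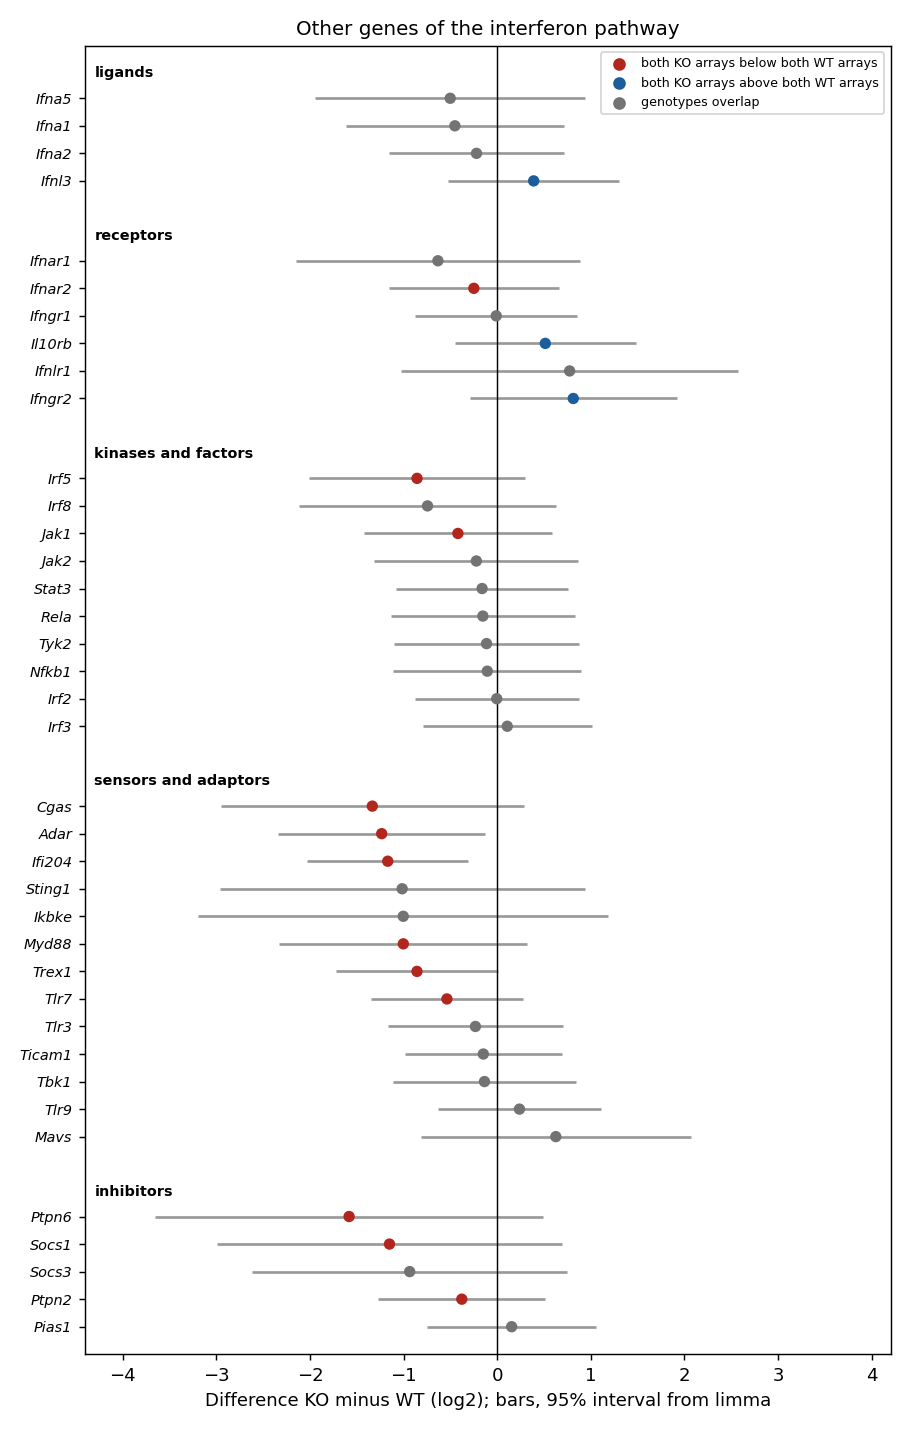
Difference KO minus WT (log2) of 38 other genes of the interferon pathway with the 95% interval from limma, by role; red marks genes lower on both KO arrays, blue genes higher on both KO arrays and grey those that overlap. The sensors and adaptors hold 6 red points of 13, the receptors 1 red and 2 blue of 6.

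Promoter motifs were set beside the differences for the 28 genes with a window. Dhx58, Zbp1, Rtp4 and Usp18, 4 of the 5 largest differences of the list, had no window and are not covered. The 13 genes with an ISRE core in the window had a median difference of -1.15 (-2.07 to -0.43), and the 15 with a window but no such core -0.98 (-1.38 to -0.06). Genotypes were separate for 9 of the 13 and 10 of the 15. The ISRE cores shown for Isg15 and for Ifit1 are alike in number, 3 each, while the genotypes of Isg15 were separate and those of Ifit1 overlapped. No match says only that these letters are not in the window.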

How the data were processed

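Heart RNA of 4 samples was read on 1-colour Agilent mouse arrays, per the labels. The deposited intensity is the scanner's processed signal, from which background was subtracted and a spatial trend removed per the file headers, which name Feature Extraction 11.0.1.1. Version 9.1 of Agilent Feature Extraction is named in the submitters' processing notes. The deposited spot flags were taken over unchanged. A deposited table of log2 values, whose normalization is not given in the sources used here, served as an alternative. Regressed on log2 scanner values, the 4 columns gave slopes between 0.997 and 1.01, and each column's median was 6.11.

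Control and outlier spots were left out, no spot was saturated, and spots of a probe were averaged as log2. The 75th percentile of each array was subtracted. Kept were features with a value on all 4 arrays and a probe well above background on at least 2, with the brightest probe per gene. Of 39429 probes, 27234 had 1 symbol through their RefSeq accession in the GRCm38.p6 table, 0 had several and 12195 had none. Genotypes were compared over 22925 features with limma 3.58.1 (lmFit, eBayes; R 4.3.3). P-values are two-sided and were adjusted by the Benjamini-Hochberg method at 0.05. The fit was run on simulated data with independent normal noise around the feature means. That setting lacks the shared variation between genes seen here, so it says nothing on error rates in these arrays. Coordinates are those of the promoter table, since the arrays' grid names another build.

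The genes and lists were chosen with earlier results of these data known. Named are S1pr1, the listed genes, the other pathway genes and the marker lists, and 1 pathway gene is not reported here. Values on every array are given for all factors, sensors and Isg15-related genes and for the 3 genes of smallest p of each other role. Promoters printed were limited to genes with an ISRE core before the start, a limit added to the rule. Alternatives were quantile and median scaling, normexp with an offset of 50 on median signals, the deposited values, other filters, a common floor, a mean over probes, a trended robust variance, a threshold of 0.10 and each array left out.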

Additional observations from a re-analysis of the deposited data

How the results depend on the processing

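Over the alternatives tried, 0 features passed the test in any. With all 4 arrays, the 35 genes had a median difference between -1.18 (median scaling) and -0.95 (normexp), and all 35 were lower in KO. Leaving out each array in turn gave medians of -1.49 to -0.63. The arrays that brought it nearest 0 were WT replicate 3 (-0.66) and KO replicate 4 (-0.63). With an array left out, Irf1 ran from -0.25 to 0.12 and Ifit2 from -1.98 to 0.010. Irf1 was above 0 without WT replicate 1 (0.12) or KO replicate 3 (0.053), and Ifit2 without WT replicate 3 (0.010). The smallest adjusted p of the 35 genes in limma was 0.298, without WT replicate 3, and no smaller than 0.662 otherwise. Median scaling moved the median of all features from 0.07 to -0.04, and testing dim probes moved it to -0.12. The mean of its 2 probes gave Irf1 a difference of -0.89, the second probe being dim. The cause of these shifts was not tested. No paired analysis was possible because no sample title pairs a KO sample with a WT sample. WT replicate 1 had the fewest probes well above background, which limits the dim ligands.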
